A study of Mus musculus with 6 samples.

Results

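The genes described here are the 34 that supply and build the sugar chain which cells attach to asparagine residues of new proteins in the endoplasmic reticulum (ER). They comprise the enzymes that make activated sugars (the hexosamine and mannose routes), the dolichol lipid carrier and its sugar donors, the ALG glycosyltransferases, and the ER glucosidases that trim the chain. All rows of the deposited count table with one of these 34 gene symbols were taken. Every one of the 34 had a row, out of 52550 genes in the table, and all 34 passed the filter on low counts.

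RNA was sequenced from cells prepared as AT2 cells, the alveolar type II cells that secrete lung surfactant. They came from lungs of C57BL/6 mice digested with dispase, and were sorted magnetically as CD45- and EPCAM+ cells. The Grp78KO group (3 libraries) carried Sftpc+/creERT2 and Grp78f/f and was given tamoxifen, written Tmx in the labels. The Control group (3 libraries) carried the same alleles, Sftpc+/creERT2 and Grp78f/f, and is labelled as without Tmx, so all 6 libraries share one Sftpc allele with the creERT2 insertion and floxed Grp78. Both groups nevertheless have a label of 10 days after a Tmx injection, so whether the controls received it is unclear, and where they did not, tamoxifen and the deletion cannot be told apart. Cre in this line is driven from the surfactant protein C gene, so other cells in the sorted fraction would keep Grp78. The labels give neither the age of the mice nor whether each library is a separate animal, so the tests measure the spread between libraries, which may be technical.

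The ER builds a branched chain of N-acetylglucosamine, mannose and glucose on the lipid dolichol, first on the cytosolic face of the membrane and then inside the lumen. The finished chain is moved in one step onto proteins as they enter the ER, and trimming of its glucoses by the glucosidases lets the lectin chaperones calnexin and calreticulin bind the new protein. AT2 cells secrete large amounts of protein through this route. The hexosamine enzyme gene Gfpt1 is known in mouse as a direct target of spliced XBP1, a transcription factor of the ER stress response.

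Library totals were 110770711 to 128129307 counts for Grp78KO and 131235053 to 149520306 for Control. Hspa5, which encodes Grp78, was at 9262, 9180 and 3809 CPM (counts scaled to library size, here with TMM factors) in Grp78KO libraries 1, 2 and 3, against 1355, 1289 and 925 in Control libraries 1, 2 and 3, higher under the label of its own loss. Gene counts cannot show whether the floxed exons were removed, so Grp78KO here means the libraries carrying that label. The 13 AT2 markers were all present and all lower (summed CPM 53386 to 70281 in Grp78KO and 143606 to 167338 in Control), while all 12 markers of fibroblasts and smooth muscle were higher (1267 to 1407 CPM in Grp78KO and 235 to 596 CPM in Control). All 5 mesothelial markers were higher too, summing to 589, 580 and 447 CPM in Grp78KO 1, 2 and 3. In Control 1, 2 and 3 they summed to 308, 301 and 256 CPM. Most of each sum was Krt19, at 412, 388 and 280 CPM in Grp78KO and 208, 206 and 149 CPM in Control. Krt19 and Wt1 were lowest in library 3 of both groups, as were most of the genes described here. Msln was highest in library 3 of both groups, and Upk3b and Lrrn4 were lowest in Grp78KO 3 but highest in Control 3. Of 7 cell-cycle markers 5 were higher (197 to 205 CPM summed in Grp78KO and 91.5 to 129 CPM in Control). Of 6 AT1 (alveolar type I) markers 3 were lower and 1 higher (958 to 1021 CPM in Grp78KO and 1670 to 1954 CPM in Control). Of 7 endothelial markers 1 was higher and 0 lower, and of 5 erythroid markers 1 was lower and 0 higher. Epcam, the gene of the sorting marker, was lower (log2 fold -0.33, edgeR adjusted p = 0.025). None of 7 airway markers was called, though their RNA was abundant. They summed to 33767, 35906 and 32295 CPM in Grp78KO 1, 2 and 3, and to 56988, 54248 and 31164 CPM in Control 1, 2 and 3. In Grp78KO the airway gene Scgb1a1 (27830, 30127 and 26914 CPM) stood above the AT2 gene Sftpc (15506, 14460 and 18606 CPM). All leukocyte markers together summed to 1851 to 1969 CPM in Grp78KO and 2727 to 3126 CPM in Control. Nearly all of that was the lysozyme gene Lyz1, which was called lower (log2 fold -0.69, edgeR adjusted p = 0.00739). Leukocyte markers without Lyz1 summed to between 15.2 and 111 CPM in Grp78KO, highest in library 3, and to 12.9 to 15.5 CPM in Control. The CD45 gene Ptprc stood at 11.0 CPM in Grp78KO 3 and between 0.963 and 2.07 CPM in the other 5 libraries. In bulk RNA, fewer cells of a type and less RNA per cell cannot be told apart, and the part of other cells in the results was not tested.

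Of the 34 genes, 16 were higher and 1, Alg1, was lower in Grp78KO (edgeR quasi-likelihood test, Benjamini-Hochberg adjusted p under 0.05 over 18849 genes). Over all genes tested, 18% were called higher and 18.8% lower. The median log2 fold (Grp78KO over Control) of the 34 was 0.32, against 0.02 over all genes tested. All 3 Grp78KO libraries lay above all 3 controls for 18 of the 34 genes and below them for 2, where 25% and 26.6% of all genes did. The remaining 17 genes were not called. Without both libraries numbered 3, 21 were higher and 3 (Alg1, Alg2 and Alg10b) lower. Leaving out Control 1, 2 or 3 left 10, 7 and 9 genes called higher, and leaving out Grp78KO 1, 2 or 3 left 8, 7 and 20. Scaling by library size alone raised the count to 26 and moved the median gene by 0.26 on the log2 scale. Of all calls, 48.9% were higher with TMM, 82.2% with library-size scaling and 59.2% with upper-quartile factors.

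**Figure D1:**
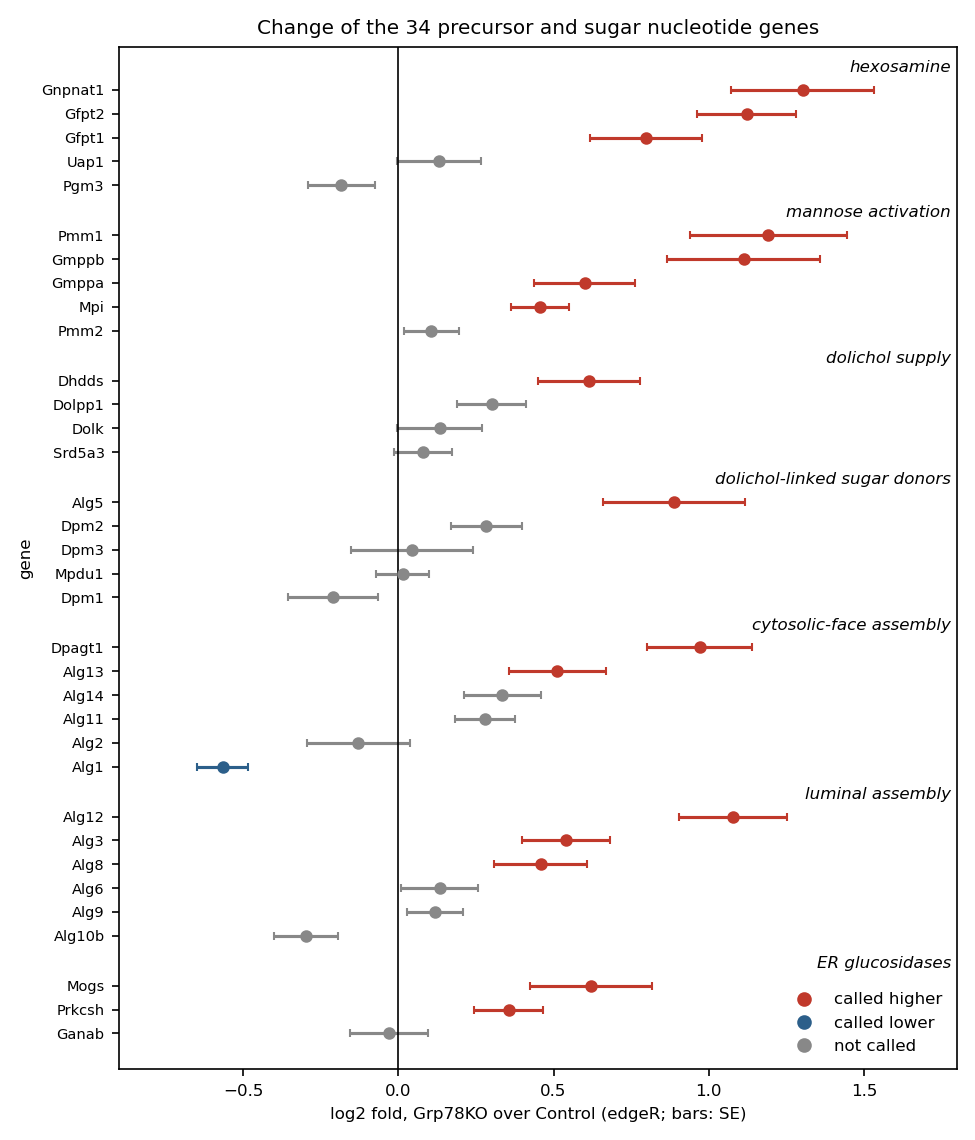
Log2 fold of each of the 34 genes, Grp78KO over Control, on the horizontal axis, grouped by step of the pathway; bars are the SE from edgeR, and colours give the call. Called rises reach 1.30 (Gnpnat1) and the single called fall is Alg1 at -0.57, with called and uncalled genes in every step.

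The rises were uneven along each route, and in most steps a gene that rose stood next to one that was not called. Grp78KO 3 showed the smallest increase over the control mean for all 16 of the genes called higher. Among all 3391 genes called higher, 61.6% were lowest in that library within Grp78KO. The median gene of the 34 stood 0.43, 0.43 and 0.16 above the control mean (log2) in Grp78KO 1, 2 and 3. Hspa5 itself was lowest in the same library, as its values above show. Control 3 had the lowest level of the controls for most of the 34 genes, with a median of -0.11 from the control mean.

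Promoter sequence was available for 29 of the 34 genes, as windows from 250 bases before to 50 bases after the RefSeq start (GRCm38.p6, the same assembly as mm10). Each was searched on both strands for binding elements of ER stress factors. The ER stress response element (ERSE, CCAAT and CCACG with 9 free bases between), read by ATF6 with NF-Y, was present in 1 of the 29 windows (3.45%), that of Alg12, and in 0.127% of the 16509 windows of genes tested. ERSE-II (ATTGG and CCACG with 1 free base between), the unfolded protein response element (UPRE, TGACGTGG) and CARE (TGATGNAA, read by ATF4 and its partners) were in none of the 29, and in 0.0485%, 0.957% and 2.38% of the windows of genes tested. GACGTG, the core that lies within the UPRE and was added after those searches, was in 7 of the 29 (24.1%), against 8.49% of the windows of genes tested. These are matches of letters and not measured sites. RNA of Xbp1 was not called (log2 fold -0.07, edgeR adjusted p = 0.815), and gene counts do not show its splicing. RNA of Atf4 was higher (log2 fold 1.57, edgeR adjusted p = 0.00542). Shown here, 5′ to 3′ on the strand of the gene, are the matches in genes that rose and whose stretch lies before the start in both RefSeq and GENCODE M21. The matched letters are in capitals, and CACGTC is GACGTG read on the other strand.
Alg12: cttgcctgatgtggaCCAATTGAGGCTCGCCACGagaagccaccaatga
Gfpt1: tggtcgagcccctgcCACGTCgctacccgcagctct
Gfpt2: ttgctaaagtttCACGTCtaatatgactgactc
Mogs: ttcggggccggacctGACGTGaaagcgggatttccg
The stretches lie at chr15:88819505-88819553 (minus strand) for Alg12, and on the plus strand at chr6:87042709-87042744 for Gfpt1, chr11:49793905-49793937 for Gfpt2 and chr6:83115458-83115493 for Mogs. Windows of Uap1, Pgm3, Dpm2 and Dhdds also held GACGTG. Of these 4 genes only Dhdds was called higher, so the match was shared by genes that rose and genes that were not called.

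The ERSE of Alg12 lies between 2 genes that point away from each other. Creld2, which encodes a secreted ER protein induced by ER stress, starts 328 bases from the start of Alg12 on the opposite strand (chr15:88819646-88826683, mm10). It was at 1349, 1307 and 526 CPM in Grp78KO libraries, against 99.8, 92.5 and 79.5 CPM in Control, higher by 3.55 on the log2 scale (SE 0.363, edgeR adjusted p = 0.000843). Both genes of the pair therefore rose, with different folds. In all, 8 of the 34 genes had a protein-coding gene starting within 1000 bases on the other strand and pointing away. Of those 8 neighbours 4 were called higher and 1 lower, beside 18% and 18.8% over all genes tested. The exosome subunit gene Exosc8 beside Alg5 rose by 0.43 on the log2 scale (edgeR adjusted p = 0.0397). The copper transporter gene Atp7b beside Alg11 stood at -1.38 (edgeR adjusted p = 0.00064).

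The hexosamine route converts fructose 6-phosphate to UDP-N-acetylglucosamine, the donor of the first sugars of the chain. Its entry enzymes and its acetyltransferase rose, and its last enzymes were not called. Gnpnat1 (chr14:45376334-45404913, minus strand), which acetylates glucosamine 6-phosphate, was at 93.2, 94.3 and 54.8 CPM in Grp78KO libraries 1, 2 and 3, against 37.9, 34.2 and 26.1 CPM in Control libraries 1, 2 and 3. All Grp78KO libraries lay above all controls. Its log2 fold of 1.30 (SE 0.230, edgeR adjusted p = 0.00528) was the largest of the 34 and ranked 1457 among 18849 genes. Styx overlaps the whole gene on the other strand, and it was at 0.655 to 1.05 CPM in Grp78KO and 0.939 to 1.11 CPM in Control, far below Gnpnat1.

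Gfpt1 (chr6:87042846-87092197, plus strand) encodes the amidotransferase that opens the route and sets its rate. It was at 538, 545 and 347 CPM in Grp78KO, against 284, 280 and 259 CPM in Control. The groups were apart, with Grp78KO 3 nearer to the controls, and Gfpt1 was higher by 0.80 on the log2 scale (SE 0.181, edgeR adjusted p = 0.0129). The call ended without Control 2 or without Grp78KO 2 (highest edgeR adjusted p = 0.0566). Gfpt2 (chr11:49794178-49838613, plus strand), its paralog, was at 11.6, 11.8 and 8.47 CPM in Grp78KO, against 4.48, 4.71 and 5.44 CPM in Control, higher by 1.12 on the log2 scale (SE 0.160, edgeR adjusted p = 0.00244). Again no Grp78KO library overlapped a control. The 12 markers of fibroblasts and smooth muscle, which also rose, summed to 1267, 1366 and 1407 CPM in Grp78KO and to 236, 235 and 596 CPM in Control, highest in library 3 of both groups. Gfpt2 was highest in library 3 among controls and lowest there in Grp78KO. Within Grp78KO, Col3a1, Pdgfra, Dcn, Acta2, Tagln and Des of that list were lowest in library 3 too. Col1a1, Col1a2, Lum, Mfap4 and Col6a3 were highest there, and Pdgfrb lay between. The part of such cells in the result was not tested.

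Pgm3, the mutase of the middle step, was at 26.2, 27.2 and 22.0 CPM in Grp78KO, against 29.6, 29.6 and 26.4 CPM in Control. Uap1, which forms UDP-N-acetylglucosamine, was at 83.3, 83.9 and 60.4 CPM in Grp78KO, against 69.4, 72.8 and 65.5 CPM in Control. In both genes the groups overlapped. Their log2 folds were -0.18 (SE 0.109) and 0.13 (SE 0.136), at edgeR adjusted p = 0.216 and 0.478. Scaling by library size alone turned Pgm3 to 0.07 and called Uap1 at 0.38 (edgeR adjusted p = 0.0359). Without Grp78KO 3 Uap1 was also called, at 0.27 (edgeR adjusted p = 0.0273).

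**Figure D2:**
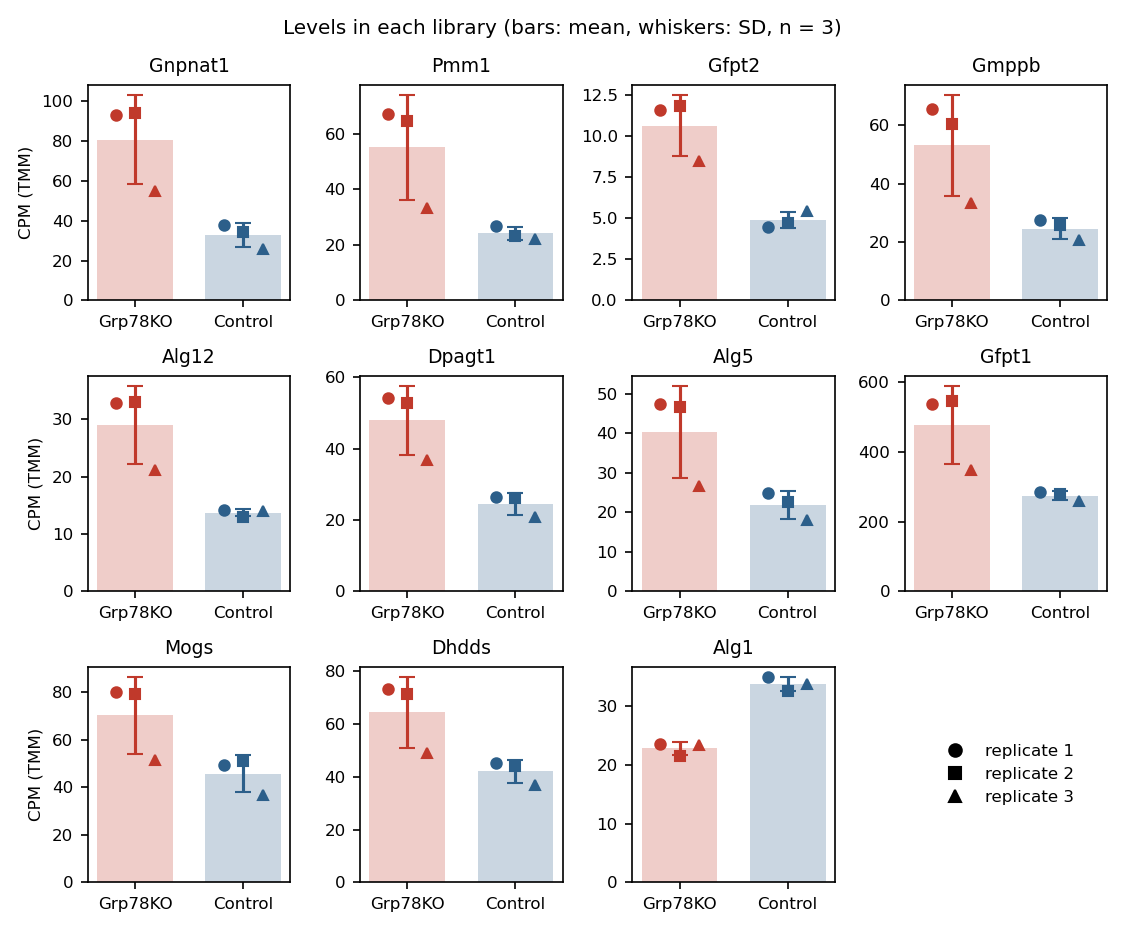
CPM (TMM-scaled) of the 10 genes with the largest called rises and of Alg1, the called fall, in each library; bars are group means, whiskers the SD over 3 libraries, and the marker shape gives the replicate number. In the 10 rising genes the lowest Grp78KO library, number 3, still lies above the highest control, for example 51.5 against 51.0 CPM for Mogs.

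Mannose enters the chain as GDP-mannose, and 4 of the 5 genes that make it rose. Mpi, which forms mannose 6-phosphate from fructose 6-phosphate, averaged 14.5 ± 0.732 CPM in Grp78KO and 10.6 ± 0.513 CPM in Control (SD, n = 3 each), higher by 0.46 on the log2 scale (edgeR adjusted p = 0.00873). Pmm1 (chr15:81951108-81960930, minus strand) encodes a phosphomannomutase. It was at 67.2, 64.8 and 33.2 CPM in Grp78KO, against 26.8, 23.3 and 22.3 CPM in Control. The fold in Grp78KO 3 was much the smallest, yet the groups were apart (log2 fold 1.19, SE 0.252, edgeR adjusted p = 0.0105). Pmm2, the paralog whose loss causes the most common human congenital disorder of glycosylation, was at 21.8, 21.5 and 19.0 CPM in Grp78KO, against 19.2, 19.3 and 19.4 CPM in Control. Those groups overlapped (log2 fold 0.11, SE 0.0889, edgeR adjusted p = 0.377). Part of Pmm2 lies over Carhsp1 on the other strand, which was itself called higher.

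GDP-mannose is then made by the catalytic subunit encoded by Gmppb and its regulatory partner Gmppa. Gmppb (chr9:108049242-108052801, plus strand) was at 65.8, 60.4 and 33.5 CPM in Grp78KO, against 27.5, 25.7 and 20.6 CPM in Control (log2 fold 1.11, SE 0.247, edgeR adjusted p = 0.0123). Gmppa was at 49.3, 45.9 and 31.6 CPM in Grp78KO, against 29.2, 28.5 and 26.0 CPM in Control (log2 fold 0.60, SE 0.163, edgeR adjusted p = 0.025). Neither gene's groups overlapped. Gmppb kept its call in each of 16 alternative settings, and Gmppa lost it on leaving out Control 1, 2 or 3 or Grp78KO 1 or 2 (highest edgeR adjusted p = 0.0892). Rnf123, which overlaps Gmppb on the other strand, was called lower (log2 fold -0.37), and the counts are not known to separate strands.

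Enzymes of one step could also be set against each other as ratios within a library. Levels of CPM per kilobase of exon put Gfpt1 at 47.3 ± 11.1 in Grp78KO and 27.2 ± 1.34 in Control, far above Gfpt2 at 1.90 ± 0.334 and 0.872 ± 0.0900 (SD, n = 3 each). Pmm1 was the more abundant mutase at 19.2 ± 6.62 CPM per kilobase in Grp78KO and 8.41 ± 0.828 in Control, with Pmm2 at 3.76 ± 0.277 and 3.49 ± 0.0252. The log2 ratio of Pmm1 over Pmm2 averaged 2.28 ± 0.463 in Grp78KO and 1.26 ± 0.149 in Control (SD, n = 3 each), a difference of 1.02. For Gfpt2 over Gfpt1 the difference was 0.33, and for Gmppa over Gmppb it was -0.49. Uap1l1, a paralog of Uap1, was at 55.6, 54.3 and 46.9 CPM in Grp78KO, against 44.3, 40.4 and 38.8 CPM in Control. Relative to Uap1 it was 0.23 higher in Grp78KO on the log2 scale. In all 4 pairs the groups did not overlap, narrowly for Uap1l1 over Uap1 (-0.648 in Grp78KO 2 and -0.670 in Control 1). Of all single genes tested, 25% lay wholly above and 26.6% wholly below the controls. No such share was computed for ratios of other genes. The two-sided exact permutation p was 0.1 for each pair, raw and adjusted over the 4 pairs. That is the smallest that 3 libraries against 3 can give.

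**Figure D3:**
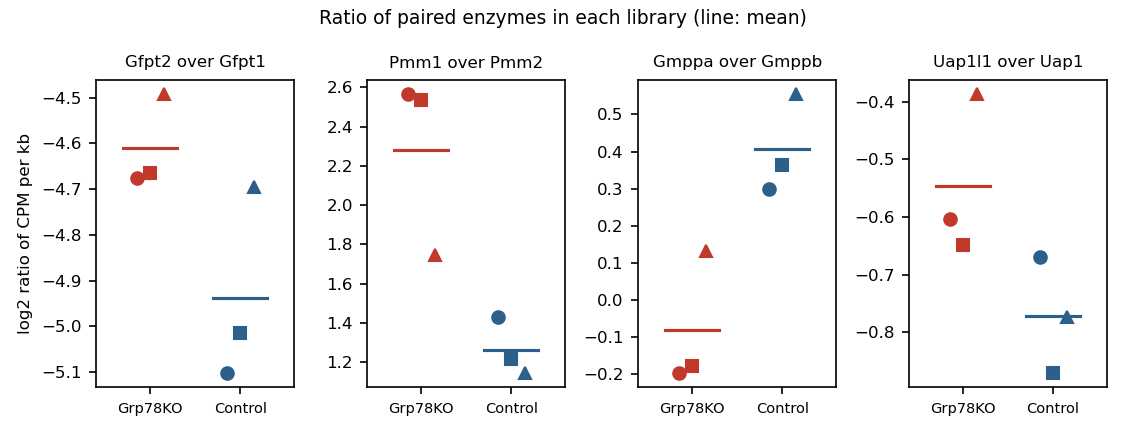
Log2 ratio of CPM per kilobase between enzymes of one step, in each Grp78KO and Control library (circle, square and triangle are replicates 1, 2 and 3; the line is the group mean). Pmm1 over Pmm2 shows the widest gap, with means of 2.28 in Grp78KO and 1.26 in Control.

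The dolichol carrier genes moved little apart from Dhdds. Dhdds encodes the catalytic subunit of the prenyltransferase that elongates the isoprenoid chain. It was at 73.0, 71.2 and 48.8 CPM in Grp78KO, against 45.1, 44.1 and 37.1 CPM in Control, without overlap (log2 fold 0.61, SE 0.164, edgeR adjusted p = 0.0237). That call ended when Control 1, 2 or 3 or Grp78KO 1 or 2 was left out (highest edgeR adjusted p = 0.0875). Srd5a3 (polyprenol reduction), Dolk (dolichol kinase) and Dolpp1 (recycling of dolichyl pyrophosphate) had log2 folds of 0.08, 0.13 and 0.30 and were not called. Dolpp1 came nearest, with separate groups and an edgeR adjusted p of 0.0676. Dolk lies within Gm28038 on the other strand, so its counts may be shared.

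Among the genes for the lipid-linked donors, Alg5 alone was called. Alg5 makes dolichyl-phosphate glucose, and it was at 47.4, 46.6 and 26.8 CPM in Grp78KO, against 24.8, 22.6 and 17.9 CPM in Control. Grp78KO 3 stood just above Control 1 (log2 fold 0.89, SE 0.228, edgeR adjusted p = 0.0205). Without Control 2 or 3 or Grp78KO 1 or 2 the call ended (highest edgeR adjusted p = 0.0737). The subunits of the dolichyl-phosphate mannose synthase were not called. Its catalytic subunit gene Dpm1 was at 15.2, 14.4 and 10.7 CPM in Grp78KO, against 15.6, 16.8 and 14.3 CPM in Control (log2 fold -0.21, SE 0.146, edgeR adjusted p = 0.289), and at 0.04 with library-size scaling. Its counts are uncertain, because Gm20716 overlaps Dpm1 over 21317 bases on the same strand and was itself called lower. Dpm2 and Dpm3, the membrane partners, had log2 folds of 0.28 and 0.04, and Dpm2 was called higher with the replicate number as a block (edgeR adjusted p = 0.0477). Mpdu1, needed for the use of these donors, differed by 0.01.

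The cytosolic face of the membrane held both the first enzyme of the chain, which rose, and the one gene that fell. Dpagt1 (chr9:44326019-44333900, plus strand) encodes the transferase that places the first sugar phosphate on dolichol and is the target of tunicamycin. It was at 54.2, 52.8 and 36.8 CPM in Grp78KO, against 26.5, 26.1 and 20.8 CPM in Control, well apart (log2 fold 0.97, SE 0.169, edgeR adjusted p = 0.0049). Alg1 (chr16:5233621-5244912, plus strand) adds the first mannose. It was at 23.6, 21.5 and 23.4 CPM in Grp78KO, against 35.0, 32.6 and 33.8 CPM in Control, and fell by 0.57 on the log2 scale (SE 0.0827, edgeR adjusted p = 0.00262). Here Grp78KO 3 lay with the other Grp78KO libraries, unlike in the genes that rose. The call of Alg1 held in all 16 alternative settings, with log2 folds between -0.60 and -0.31. Eef2kmt, which overlaps the end of Alg1 over 761 bases on the other strand, moved the other way and was called higher (log2 fold 0.33).

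Alg13 and Alg14 encode the partner subunits of the enzyme that adds the next N-acetylglucosamine. Alg13 averaged 4.46 ± 0.596 CPM in Grp78KO and 3.13 ± 0.248 CPM in Control (SD, n = 3 each; log2 fold 0.51, edgeR adjusted p = 0.0368), and the call ended with the replicate block (edgeR adjusted p = 0.0548). It also ended without a filter on low counts and on leaving out Control 1 or 2 or Grp78KO 1 or 2 (highest edgeR adjusted p = 0.151). Alg14 was the reverse case, not called at a log2 fold of 0.34 (edgeR adjusted p = 0.0675) but called with the block (edgeR adjusted p = 0.0187). Per kilobase of exon, Alg14 stood at 9.93 in Grp78KO and 7.87 in Control, above Alg13 at 0.652 and 0.457. Alg2, which adds mannoses after Alg1, was at 48.0, 50.3 and 41.6 CPM in Grp78KO, against 59.7, 54.8 and 38.4 CPM in Control. Those groups overlapped through Control 3, with a log2 fold of -0.13 (edgeR adjusted p = 0.572) that became 0.14 with library-size scaling. Alg11, the last cytosolic mannosyltransferase gene, was at 0.28 with separate groups (edgeR adjusted p = 0.0556, or 0.0376 with the block).

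Inside the lumen, mannosyltransferase and glucosyltransferase genes rose in part. Alg12 (chr15:88805244-88819318, minus strand), a mannosyltransferase gene whose promoter holds the ERSE above, was at 32.8, 33.0 and 21.1 CPM in Grp78KO, against 14.2, 13.0 and 14.0 CPM in Control. The controls were close together and all Grp78KO libraries stood well above them (log2 fold 1.08, SE 0.173, edgeR adjusted p = 0.0037). Alg3, the first luminal mannosyltransferase gene, rose by 0.54 on the log2 scale (edgeR adjusted p = 0.0223), and Alg9 was at 0.12 and not called. Of the glucosyltransferase genes, which act in the order Alg6, Alg8 and Alg10b, only Alg8 was called, at 0.46 (edgeR adjusted p = 0.0466). Alg6 was at 0.13. Alg10b was at 35.5, 35.1 and 43.6 CPM in Grp78KO, against 46.6, 47.3 and 46.5 CPM in Control, below every control but not called (log2 fold -0.30, edgeR adjusted p = 0.0565), and called with the block (edgeR adjusted p = 0.037). The Alg3 call ended without Control 2 or 3 or Grp78KO 1 or 2 (highest edgeR adjusted p = 0.0833). That of Alg8 ended without any one of the libraries other than Grp78KO 3, with limma-voom and with no filter (highest edgeR or limma adjusted p = 0.165).

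Trimming starts with glucosidase I, encoded by Mogs, and goes on with glucosidase II, made of the catalytic subunit Ganab and the partner Prkcsh. Mogs was at 80.0, 79.2 and 51.5 CPM in Grp78KO, against 49.5, 51.0 and 36.7 CPM in Control. Grp78KO 3 cleared Control 2 by a narrow margin (log2 fold 0.62, SE 0.196, edgeR adjusted p = 0.0414). Prkcsh averaged 106 ± 12.8 CPM in Grp78KO and 82.7 ± 4.52 CPM in Control (SD, n = 3 each; log2 fold 0.36, edgeR adjusted p = 0.039). Both calls ended when Control 1, 2 or 3 or Grp78KO 1 or 2 was left out, and with no filter (highest edgeR adjusted p = 0.134 and 0.145). Ganab was at 257, 247 and 207 CPM in Grp78KO, against 265, 242 and 218 CPM in Control, with the groups overlapping throughout (log2 fold -0.03, SE 0.126, edgeR adjusted p = 0.866). Its sign turned with library-size and upper-quartile scaling (0.23 and 0.04).

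Per kilobase of exon, Gfpt1 and Ganab were the most abundant of these transcripts. Gfpt1 was at 47.3 ± 11.1 and Ganab at 43.4 ± 4.86 in Grp78KO, against 27.2 ± 1.34 and 44.3 ± 4.35 in Control (SD, n = 3 each). In Grp78KO the 2 genes were within their spread of each other, whereas in Control Ganab stood above Gfpt1. The lowest were Alg13 and Alg6, at 0.652 and 0.826 in Grp78KO and 0.457 and 0.754 in Control. Summed over the 34 genes, CPM reached 2035, 2014 and 1472 in Grp78KO 1, 2 and 3, against 1457, 1400 and 1258 in Control 1, 2 and 3. The Grp78KO 3 sum lay close to that of Control 1, while the other Grp78KO sums stood well above all controls.

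The steps before and after these genes were read from 5 lists with 89 genes tested. Of these, 24 were higher and 13 lower, beside 18% and 18.8% over all genes tested, with a median log2 fold of 0.16. Leaving out Control 2 or 3 or Grp78KO 1 or 2 lowered the 24 to 12, 15, 14 and 12, and leaving out both libraries numbered 3 raised the counts to 43 higher and 21 lower. Among 12 subunits of the oligosaccharyltransferase, which transfers the chain to protein, 3 were higher and 0 lower (median 0.31), beside the same shares. The 3 were Ostc (log2 fold 0.73), the catalytic subunit Stt3b (0.61) and Krtcap2 (0.60). DESeq2 and limma-voom also called 0 subunits lower, and in edgeR the number lower with an unadjusted p below 0.05 was 0. The 3 rises became 0 on leaving out Control 2 or 3 or Grp78KO 1 or 2, and 7 without Grp78KO 3 or without both libraries numbered 3. They became 5 with DESeq2, 6 with upper-quartile factors or the replicate block and 9 with library-size scaling.

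Among 18 genes of trimming and quality control, 9 were higher and 2 lower (median 0.34), beside 18% and 18.8% over all genes tested. Without Control 2, Grp78KO 1 or Grp78KO 2 there were 5 higher, and without Control 3 there were 6. The 2 lower became 1 without Grp78KO 1 or 2 and 0 with library-size scaling. The lectin chaperone gene Calr averaged 2458 ± 824 CPM in Grp78KO and 702 ± 54.1 CPM in Control (SD, n = 3 each; log2 fold 1.81, edgeR adjusted p = 0.00255). The degradation lectin gene Edem1 rose by 1.56 and the ER nucleotidase gene Entpd5 by 0.59.

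Among 17 genes of the Golgi, where the chain is remodelled, 1 was higher and 5 lower (median -0.19), beside 18% and 18.8% over all genes tested. This split depended on the setting, with 6 higher and 3 lower under library-size scaling, 5 and 5 with upper-quartile factors and 4 and 6 with the replicate block. DESeq2 and the filter at 1 CPM gave 2 higher, leaving out Grp78KO 3 gave 2 higher and 8 lower, and leaving out both libraries numbered 3 gave 4 and 11. The core fucosyltransferase gene Fut8 fell to 54.4 ± 13.0 CPM in Grp78KO, against 112 ± 2.82 CPM in Control (SD, n = 3 each; log2 fold -1.04, edgeR adjusted p = 0.00306). The mannosidase gene Man1a fell by 0.78, and the sialyltransferase gene St3gal4 rose by 0.83. Of 32 genes for other sugar nucleotides and their transport, 9 were higher and 2 lower (median 0.12), beside the same 18% and 18.8%. The 9 became 5 without Control 2 or Grp78KO 2, 6 without Control 3 or Grp78KO 1, 17 without both libraries numbered 3 and 20 with library-size scaling. Called falls numbered 0 with library-size scaling or without Control 2, 1 without Control 3 or any one Grp78KO library, with RLE or upper-quartile factors or with no filter, and 4 without both libraries numbered 3. Nans, the sialic acid synthase gene, was at 130 ± 50.7 CPM in Grp78KO and 30.2 ± 2.34 CPM in Control (SD, n = 3 each; log2 fold 2.10, edgeR adjusted p = 0.00272). Gmds, which begins GDP-fucose synthesis from GDP-mannose, rose by 1.01 and Cmas, which activates sialic acid, by 0.44.

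Of 10 genes of the isoprenoid steps that supply dolichol, 2 were higher and 4 lower (median -0.03), beside 18% and 18.8% over all genes tested. The 2 became 1 without Control 2 or Grp78KO 2 and 4 without both libraries numbered 3, whereas 3 or 4 were lower in every setting. Among those lower were the early enzymes Idi1 (log2 fold -1.19), Hmgcs1 (-0.85) and Mvk (-0.51), which are shared with cholesterol synthesis. Nus1 (0.68), the partner subunit of the Dhdds enzyme, was among those higher. Nus1 and Dhdds, the subunits of the first dolichol-committed enzyme, thus both rose (edgeR adjusted p = 0.012 and 0.0237).

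**Figure D4:**
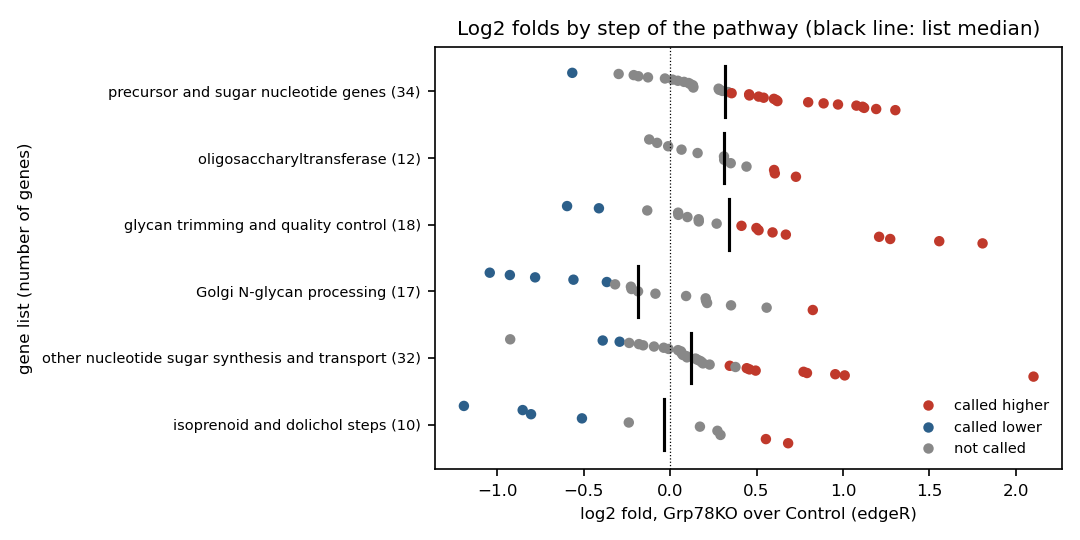
Log2 folds, Grp78KO over Control, of the 34 genes (top row) and of 5 neighbouring lists; each point is a gene, its colour the call, and the black line the list median. Medians are 0.32 for the 34 genes, 0.34 for trimming and quality control and -0.19 for Golgi processing.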

How the data were processed

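The authors deposited one table of raw read counts per gene symbol for 6 libraries; per the labels' protocols, libraries were made with the NEBNext Ultra RNA kit and read as pairs of 150 bases. Per the submitters' processing notes, reads belong to build mm10 and edgeR 3.7 was among the tools; the aligner, counting program and gene annotation were not given in the sources used here. Counts of 2 outnumbered counts of 1 by 1.63 to 1.76 times in the 6 libraries, as when mates are counted separately, so counting error may exceed what the counts imply.

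Counts were filtered with filterByExpr (18849 genes kept), scaled by TMM and tested with edgeR 4.0.16 (robust quasi-likelihood F test, group as only term, R 4.3.3), and p-values were Benjamini-Hochberg adjusted over all genes. Each SE was derived from the log2 fold and its F statistic (fold over root F). Common biological variation between libraries came to 22.3% (edgeR). The steps were tested on simulated counts with known changes. Paralog ratios used a pseudocount of 0.1 CPM. Gene positions and exon lengths came from GENCODE M21, which held 48018 of 52550 symbols; the annotation used for counting may differ.

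Same-numbered libraries deviated from their group means together across genes (r = 0.25, 0.178 and 0.31), which met the rule set for pairing. Numbers 1 and 2 were hardly told apart, with r = 0.151 for Control 2 with Grp78KO 1 and 0.125 for Control 1 with Grp78KO 2. A library numbered 3 set against another number gave r between -0.289 and -0.204. Deviations from a group mean cancel within the group, so these negative values largely follow from the r of 0.31 for number 3. The values thus separate number 3 from the others and leave pairing of 1 and 2 unsettled. The labels leave the meaning of the numbers open. The main test kept group as its only term. No libraries agreed within sampling noise: the lowest chi-square per gene on halved counts was 8.52, for Grp78KO 1 with Grp78KO 2. Set against Grp78KO 3, these 2 gave 179 and 147. Control 1 with Control 2 gave 21.5, and against Control 3 they gave 123 and 84.8. Libraries 1 and 2 of each group were thus closer to each other than to library 3. Alternatives were other scalings, filters and tests (DESeq2 1.42.0, limma-voom 3.58.1), the replicate block and leaving out libraries.

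The genes and lists were chosen with earlier results of these data known. All 34 genes are named. Values per library are given for the 10 largest called rises, called falls, genes whose direction turned with scaling, and paralog pairs, plus Alg10b, chosen after its values were seen. From each neighbouring list the 3 called genes with the lowest adjusted p are named. Mvk, Nus1, Creld2, Exosc8, Atp7b, Xbp1, Atf4, Epcam and genes overlapping the 34 were added after their values were seen. Dhrsx and the marker gene Itgam were not analysed here, and single values of some genes in the neighbouring lists are not reported here.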

Additional observations from a re-analysis of the deposited data

How the results depend on the processing

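The 34 genes under 16 alternative settings kept their direction and their side of the threshold in 452 cases, lost the call in 45, gained it in 35 and changed sign in 12. Of the 16 genes called higher, 7 kept the call in every setting (Gfpt2, Gnpnat1, Mpi, Pmm1, Gmppb, Dpagt1 and Alg12), as did Alg1 among falls, and 9 lost it without some library. Library-size scaling gave 26 genes higher, a median log2 fold of 0.57 and, in the neighbouring lists, 51 higher and 6 lower. It shifted the median gene by 0.257. Relative to the median over all genes under that scaling, the median of the 34 was 0.30, as in the TMM fit. Leaving out 1 library gave 7 to 20 genes higher and 1 to 2 lower, and 12 to 35 neighbouring genes higher. Without both libraries numbered 3 there were 3 lower, and 43 higher and 21 lower in the neighbouring lists. With the replicate block 2 were lower (Alg1 and Alg10b) and 18 higher; the block changed the calls of Alg13, Dpm2, Alg14, Alg11 and Alg10b and no other of the 34. Library-size scaling turned Pgm3 to 0.071, Dpm1 to 0.041, Alg2 to 0.136 and Ganab to 0.227, the last also with upper-quartile factors (0.044). With 1 library left out, Ganab ran from -0.105 to 0.058, Dpm3 from -0.101 to 0.222 and Mpdu1 from -0.040 to 0.069, so none of these 3 has a settled sign. What causes the calls and signs to change between settings was not tested. The 34 genes held 339 to 73105 counts per library.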
